A study of Homo sapiens with 14 samples.

Results

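The 42 genes described here build the machinery that copies DNA in S phase. They were listed by name, with earlier results of these data known. All 42 were measured among the 19775 genes that a probe set of the arrays names alone. By role they are the 6 MCM2-7 helicase subunits, 5 origin licensing genes, 6 helicase activation genes, 7 polymerase and primase genes, 6 genes of the sliding clamp and its loader, 5 genes of single-strand binding and Okazaki fragments, 3 genes of nucleotide supply, and 4 genes of S-phase entry and chromatin. RNA came from LY2, a breast cancer cell line that was selected from MCF-7 cells and is labelled tamoxifen resistant. The question was which genes these cells keep under the control of SRC-1, a coactivator of nuclear receptors encoded by NCOA1. The study used 14 Affymetrix HG-U133 Plus 2.0 arrays in 4 groups: scrambled control siRNA without tamoxifen (4 arrays), control siRNA with tamoxifen (4 arrays), SRC1 siRNA without tamoxifen (4 arrays) and SRC1 siRNA with tamoxifen (2 arrays, replicates 1 and 3). All groups had been kept in 10 nM 4-hydroxytamoxifen, which is the form of tamoxifen that binds the estrogen receptor tightly, and then 72 hours without it. All were transfected with 40 nM siRNA for 24 hours. A last treatment of 2 hours was with 100 nM 4-hydroxytamoxifen, or with 0.01% ethanol for the untreated groups. Everything thus comes from 1 cell line and 1 siRNA product against SRC-1, and no group without transfection was analysed here.

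DNA replication starts when the origin recognition complex, CDC6 and CDT1 load the ring-shaped MCM2-7 helicase onto DNA in G1, a step that geminin (GMNN) restrains later in the cycle. In S phase CDC45, the GINS complex and MCM10 turn the loaded ring into a moving helicase, primase and the DNA polymerases follow it, and the clamp PCNA, placed by replication factor C, holds the polymerases on the template. Most of these genes are classical targets of E2F transcription factors, which the retinoblastoma protein holds back until cyclin-dependent kinases inactivate it. In estrogen-dependent breast cancer cells anti-estrogens stop the cycle in G1, and replication genes are widely used there as a readout of proliferation.

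Promoters are shown because E2F sites are the best known shared feature of these genes, and because the list did not use sequence. RefSeq (GRCh38.p14) start-site windows, from 250 bases before to 50 after the start, were at hand for 36 of the 42 genes. The words TTTCCCGC, TTTGGCGC, TTTCGCGC and TTTGCCGC were searched on both strands, that is with their reverse complements GCGGGAAA, GCGCCAAA, GCGCGAAA and GCGGCAAA, and overlapping matches were counted separately. At least 1 match lay in a window of 21 of the 36 genes (58.3%), against 1090 of 27305 genes in the whole table (3.99%). The words are forms of the E2F site, and most of these genes are known E2F targets. A high share was thus built into the choice of words and is not a result of the arrays. The 27305 genes are those with a listed window, not the 19775 measured here. A match describes letters and not a bound site. The 250 bases before the start are printed below for MCM6 and HELLS, each with several lower probe sets after the knockdown, for PCNA, which did not pass, and for RRM1, which passed as lower. Matches are in capitals, and each sequence is in the direction of its gene. The windows are MCM6 at chr2:135876444-135876693 (minus strand), HELLS at chr10:94545538-94545787 (plus strand), PCNA at chr20:5126623-5126872 (minus strand, 1 of 2 listed windows) and RRM1 at chr11:4094435-4094684 (plus strand).
MCM6: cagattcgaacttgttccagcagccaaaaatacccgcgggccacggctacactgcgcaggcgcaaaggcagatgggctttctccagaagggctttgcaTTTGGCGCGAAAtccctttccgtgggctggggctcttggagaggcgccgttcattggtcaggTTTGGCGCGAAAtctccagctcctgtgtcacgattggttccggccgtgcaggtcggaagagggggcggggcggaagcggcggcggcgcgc
HELLS: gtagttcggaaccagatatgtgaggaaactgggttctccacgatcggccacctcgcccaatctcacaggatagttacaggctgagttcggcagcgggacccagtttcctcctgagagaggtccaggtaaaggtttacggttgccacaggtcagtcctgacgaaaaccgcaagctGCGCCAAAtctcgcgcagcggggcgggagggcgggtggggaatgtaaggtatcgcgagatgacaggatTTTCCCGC
PCNA: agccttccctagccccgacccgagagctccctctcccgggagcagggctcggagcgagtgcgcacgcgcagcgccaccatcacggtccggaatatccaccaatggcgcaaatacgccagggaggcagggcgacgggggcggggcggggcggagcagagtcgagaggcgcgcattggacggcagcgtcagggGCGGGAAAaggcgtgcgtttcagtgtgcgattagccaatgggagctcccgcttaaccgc
RRM1: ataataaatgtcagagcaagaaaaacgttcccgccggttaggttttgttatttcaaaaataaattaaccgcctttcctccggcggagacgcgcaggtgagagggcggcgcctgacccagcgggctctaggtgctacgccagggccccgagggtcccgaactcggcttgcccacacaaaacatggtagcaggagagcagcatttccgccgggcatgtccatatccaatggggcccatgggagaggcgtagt
MCM6 held 4 matches in 2 runs, HELLS held 2, PCNA held 1 and RRM1 held 0. Of the genes with a window, 6 of the 10 that were lower after the knockdown over both treatments held a match, and 15 of the 26 others did (57.7%).

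The replication genes gave bright signals in every group. Signals are the deposited log2 values, a gene is represented by its brightest probe set over the 14 arrays, and every change is a difference of log2 group means ± its standard error. All 42 genes lay above 3.47, the median of all probe sets. The mean signal was over 10 for 27 of them and under 5 for GINS4, POLD1 and ORC1 only. Changes of those 3 are near the floor of the scale and are compressed. Averaged over the 42 genes, the signal was 10.16 ± 0.04 (SD, n = 4) in control untreated cells, 10.19 ± 0.03 (n = 4) in control tamoxifen cells, 10.10 ± 0.03 (n = 4) in SRC1 untreated cells and 10.05 ± 0.05 (n = 2) in SRC1 tamoxifen cells. The SRC1 groups ranged from 10.02 to 10.14 and the control groups from 10.12 to 10.23, so the untreated groups overlapped and the tamoxifen-treated groups did not.

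NCOA1 itself was lower in the SRC1 siRNA groups, by -1.10 ± 0.14 in untreated cells (limma adjusted p = 6.39e-04) and -1.11 ± 0.17 in tamoxifen-treated cells (adjusted p = 0.00196). Luminal epithelial markers averaged 12.42 to 12.51 on every array, while the lists of fibroblast, immune and endothelial markers averaged 2.15 to 3.41. Of the 10 luminal markers CDH1 was lower over both treatments (-0.22 ± 0.05, adjusted p = 0.00395, block 0.0273). KRT8 was higher (0.31 ± 0.07, 0.00446, block 0.0286), so the luminal mean hides opposite changes. Among the dim immune and endothelial markers LYZ (0.43 ± 0.10, 0.00681, block 0.0246) and PECAM1 (0.52 ± 0.16, 0.0358, block 0.0886) were higher and VWF lower (-0.18 ± 0.05, 0.0361, block 0.128). Of the 9 fibroblast markers COL1A1 was bright, at 10.66 to 11.12, and higher over both treatments by 0.19 ± 0.06 (adjusted p = 0.0298, block 0.0997), while the other 8 lay between 1.51 and 3.49. Arrays with the same replicate number were less alike than independent arrays would be. Their deviations from the group means correlated at -0.585 to -0.0421 in all 18 pairs, and 77.8% of probe sets had an F value of the number in the lowest 5%, as 17 of the 42 genes had. Values look like this in a table from which differences between the numbers were taken out before deposit. No such step is stated in the labels, and whether it was done was not tested. If it was, a fit without the number overstates its residual degrees of freedom and gives p-values that are too small, and differences that use the SRC1 tamoxifen group, which has 2 of the 4 numbers, may be shifted. The fit without the number as a block is reported first. That with the block has 7 residual degrees of freedom in place of 10, and its p-values or counts stand beside the results whose call it changes. The labels call replicates biological but do not say that cultures were separate. A fall in RNA of these genes could reflect fewer cells in S phase or less RNA per cell, which bulk samples cannot tell apart.

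In untreated cells, the knockdown left most replication genes close to their control level, with small falls of MCM6, RRM1 and UHRF1. These 3 of 42 genes (7.14%) passed an adjusted p of 0.05 as lower and none as higher, against 5.98% lower and 5.97% higher among all genes, so the share was near the background. With the replicate block none passed, against 2.23% lower and 2.53% higher among all genes. The median change of the 42 genes was -0.05, against -0.00 over all genes, and 28 changes were below 0 (66.7%, against 51.2% of all genes). Changes ranged from -0.30 to 0.24, and the 95% intervals of all 42 lay within 2-fold in either direction.

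MCM6, a subunit of the helicase ring, read 11.39, 11.42, 11.45 and 11.42 in control untreated cells and 11.13, 11.19, 11.19 and 11.28 in SRC1 untreated cells. All 4 SRC1 arrays were below all 4 controls, a change of -0.22 ± 0.05 (-14.3%, adjusted p = 0.0198, and 0.0869 with the block). RRM1, the large subunit of ribonucleotide reductase, which makes deoxynucleotides, read 11.47, 11.39, 11.38 and 11.47 in controls and 11.16, 11.26, 11.23 and 11.05 after the knockdown. These groups were also apart, with a change of -0.25 ± 0.07 (adjusted p = 0.0321, block 0.121). UHRF1, which recognises newly copied half-methylated DNA and helps to keep its methylation, read 11.51, 11.41, 11.37 and 11.59 against 11.22, 11.33, 11.30 and 11.22. Its change was -0.20 ± 0.06 (adjusted p = 0.0343, block 0.139), and its groups did not overlap either. Groups were apart and lower for 5 genes, these 3 with PRIM1 and TYMS (11.9%, against 9.40% of all genes), and apart and higher for ORC6 and PCNA (4.76% against 9.02%).

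Genes near the threshold pointed both ways. CDC6, the licensing ATPase, had the lowest change in untreated cells. It read 9.24, 9.14, 8.95 and 9.37 in controls and 8.84, 8.88, 9.07 and 8.70 after the knockdown. Its groups overlapped through replicate 3 of each, and the change of -0.30 ± 0.09 had an adjusted p of 0.0587. ORC6, a subunit of the origin recognition complex, read 10.06, 10.35, 10.34 and 10.30 against 10.44, 10.45, 10.54 and 10.40, a change of 0.20 ± 0.07 (adjusted p = 0.0812). PCNA read 11.38, 11.34, 11.31 and 11.39 against 11.44, 11.47, 11.50 and 11.57, a change of 0.14 ± 0.05 (adjusted p = 0.0950). The SRC1 arrays of ORC6 and PCNA were thus all above their controls, yet neither gene passed the test.

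In tamoxifen-treated cells, after the knockdown, MCM6, CDC6, GINS2, MCM10, RFC1, RPA2, RRM1 and TYMS passed as lower, genes of 6 of the 8 roles. That is 8 of 42 genes (19.0%), with 0 higher, against 8.71% lower and 6.49% higher among all genes. The median change was -0.14 against -0.03 over all genes, and 32 changes were below 0 (76.2% against 55.8%). Only 2 arrays stand on the SRC1 side. Without SRC1 tamoxifen replicate 1 no member passed, without control tamoxifen replicate 3 the count was 3, and with the replicate block it was 0 (all genes, 1.31% lower and 1.39% higher). This comparison and the untreated one use different arrays but share 1 estimate of the spread.

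**Figure D1:**
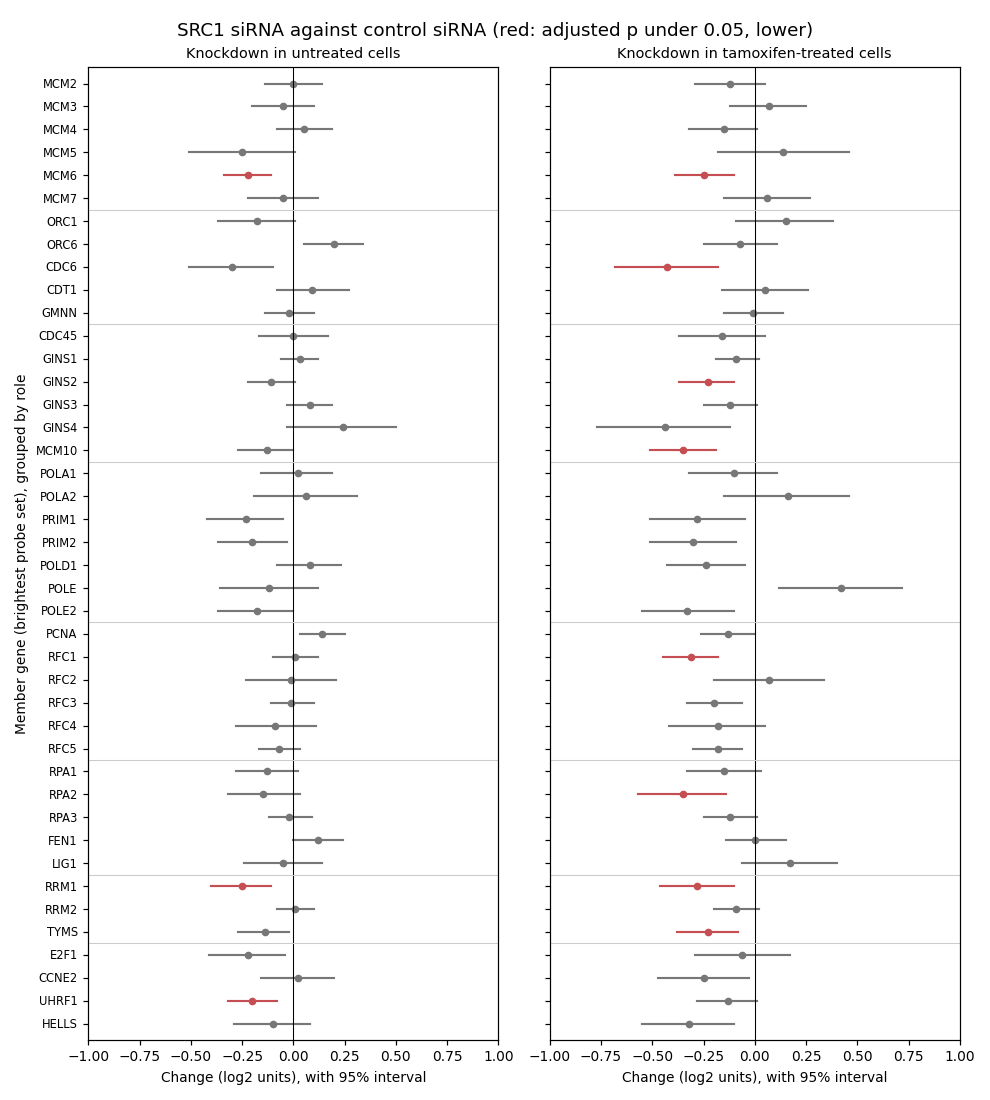
Change of each of the 42 genes after the knockdown (log2 units, horizontal axis) with its 95% interval, in untreated cells on the left and tamoxifen-treated cells on the right, with genes in rows grouped by role; red marks an adjusted p under 0.05. In untreated cells 3 genes are red and in tamoxifen-treated cells 8, all lower, and no interval reaches a change of 1.

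CDC6 had the largest fall among the brightest probe sets that passed. It read 9.07, 9.22, 9.17 and 9.27 in control tamoxifen cells and 8.66 and 8.85 in SRC1 tamoxifen cells, a change of -0.43 ± 0.12 (-25.6%, adjusted p = 0.0289, block 0.149). MCM10, which helps to start the helicase, read 9.53, 9.64, 9.49 and 9.69 against 9.18 and 9.29, a change of -0.35 ± 0.07 (adjusted p = 0.00986, block 0.0824). GINS2, a subunit of the helicase-activating GINS complex, read 11.37, 11.29, 11.38 and 11.38 against 11.07 and 11.17, a change of -0.23 ± 0.06 (adjusted p = 0.0285, block 0.156). In all 3 genes both SRC1 arrays lay below every control array, and replicate 1 was the lower of both.

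RFC1, the large subunit of the clamp loader, had the smallest p among the brightest probe sets here. It read 10.04, 10.18, 10.20 and 10.11 in control tamoxifen cells and 9.82 on both SRC1 arrays, a change of -0.31 ± 0.06 (adjusted p = 0.00722, block 0.0806). RPA2, a subunit of the complex that coats single-stranded DNA, read 9.49, 9.53, 9.65 and 9.81 against 9.21 and 9.33, a change of -0.35 ± 0.10 (adjusted p = 0.0348, block 0.163). The groups of both genes were apart. In untreated cells the difference was 0.01 ± 0.05 for RFC1 and -0.15 ± 0.08 for RPA2, neither past the test.

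MCM6 and RRM1 passed here as well as in untreated cells. MCM6 read 11.42, 11.36, 11.30 and 11.43 against 11.03 and 11.23, a change of -0.25 ± 0.07 (adjusted p = 0.0272, block 0.167). RRM1 read 11.57, 11.41, 11.48 and 11.73 against 11.23 and 11.31, a change of -0.28 ± 0.08 (adjusted p = 0.0414, block 0.181). TYMS, thymidylate synthase and the target of fluorouracil, read 12.42, 12.20, 12.26 and 12.29 against 12.01 and 12.11, a change of -0.23 ± 0.07 (adjusted p = 0.0474, block 0.223). The TYMS call was lost with quantile normalization (adjusted p = 0.101), with only the arrays compared (0.143) and with array weights (0.0812). That of RRM1 was lost under the same settings (0.0862, 0.126 and 0.0774), and that of MCM6 under the first (0.0601) and second (0.118). The groups did not overlap in these 3 genes. Over the list, both SRC1 arrays lay below all 4 controls for 24 genes (57.1%), against 23.0% of all genes, and above them for POLE and LIG1 (4.76%), against 15.9%.

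Several genes that missed the threshold had differences of similar size. POLE2, the second subunit of DNA polymerase epsilon, read 11.08, 11.02, 10.90 and 11.04 against 10.50 and 10.86 (-0.33 ± 0.11, adjusted p = 0.0568). RFC3 read 12.49, 12.42, 12.48 and 12.48 against 12.21 and 12.34 (-0.20 ± 0.06, adjusted p = 0.0506). RFC5 read 13.12, 13.21, 13.19 and 13.09 against 12.99 and 12.95 (-0.18 ± 0.06, adjusted p = 0.0536). All 3 had their groups apart. POLE, the catalytic subunit of polymerase epsilon, had the opposite sign, with 6.38, 6.07, 6.01 and 6.28 in controls and 6.52 and 6.70 after the knockdown (0.42 ± 0.14, adjusted p = 0.0596). The catalytic and the second subunit of that polymerase thus had fitted changes of opposite sign, and neither passed.

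Over both treatments together, which uses all 14 arrays in an additive model and so shares its arrays with both comparisons above, 11 of the 42 genes were lower and 0 higher (26.2% lower, against 11.1% lower and 9.34% higher among all genes). The genes were MCM6, CDC6, GINS2, MCM10, PRIM1, PRIM2, POLE2, RPA2, RRM1, TYMS and UHRF1. With the replicate block CDC6, MCM6 and RRM1 passed (7.14%, against 5.94% of all genes lower and 5.52% higher). Fitted changes were below 0 for 34 of the 42 genes (81.0%), against 54.3% of all genes, and the median was -0.06 against -0.01. Without SRC1 tamoxifen replicate 1 the count was 7, and without all arrays of replicate number 1 it was 1.

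**Figure D2:**
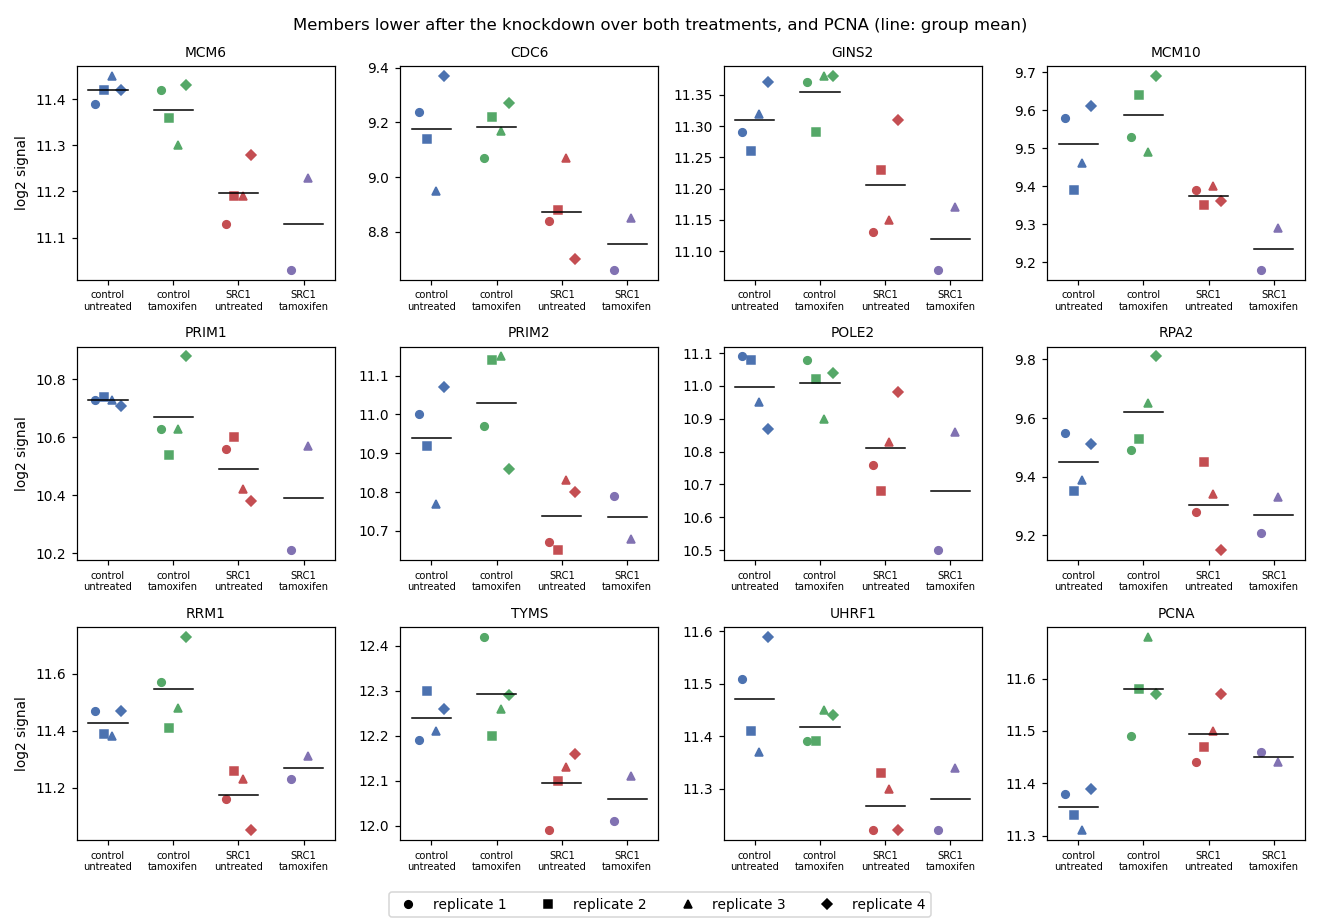
Log2 signal (vertical axis, a different range in each panel) on each of the 14 arrays by group for the 11 genes lower over both treatments and for PCNA; symbols give the replicate number and lines the group means. MCM6 lies at 11.30 to 11.45 in the control groups and 11.03 to 11.28 in the SRC1 groups, whereas PCNA is highest in control tamoxifen cells at 11.49 to 11.68.

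CDC6 (-0.35 ± 0.07, adjusted p = 0.00395, block 0.0241), MCM6 (-0.23 ± 0.04, 0.00152, block 0.0149) and RRM1 (-0.26 ± 0.05, 0.00285, block 0.0213) therefore passed both fits by their brightest probe sets. MCM6 was the only 1 of the 6 helicase ring subunits to pass in any comparison by its brightest probe set. MCM2, MCM3, MCM4, MCM5 and MCM7 had differences over both treatments between -0.09 and -0.00. Among the licensing genes CDC6 fell, while the difference was 0.07 ± 0.06 for CDT1, its loading partner, and -0.02 ± 0.04 for GMNN, the inhibitor of CDT1. Both primase subunits were lower, the catalytic PRIM1 by -0.25 ± 0.07 (adjusted p = 0.0160, block 0.0674) and PRIM2 by -0.24 ± 0.06 (0.0158, block 0.0719). For the subunits of DNA polymerase alpha, which works with primase, the difference was -0.03 ± 0.06 (POLA1) and 0.10 ± 0.09 (POLA2), and neither passed. RRM1 fell by its brightest probe set, and RRM2, the small subunit of the same reductase, had a difference of -0.03 ± 0.03. The second probe set of RRM1, 201476_s_at, had a difference of -0.03 ± 0.15 (adjusted p = 0.912). The mean of both RRM1 probe sets was -0.15, which did not pass (adjusted p = 0.189). No test compared one gene with another.

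PRIM1 read 10.73, 10.74, 10.73 and 10.71 in control untreated, 10.63, 10.54, 10.63 and 10.88 in control tamoxifen, 10.56, 10.60, 10.42 and 10.38 in SRC1 untreated, and 10.21 and 10.57 in SRC1 tamoxifen cells. PRIM2 read 11.00, 10.92, 10.77 and 11.07, then 10.97, 11.14, 11.15 and 10.86, then 10.67, 10.65, 10.83 and 10.80, then 10.79 and 10.68 in the same order of groups. The SRC1 arrays were the lower ones in both genes, with overlap in PRIM1 between SRC1 tamoxifen replicate 3 (10.57) and control tamoxifen replicate 2 (10.54) and in PRIM2 between the untreated groups. E2F1, the activator that drives many of these genes, had a difference of -0.16 ± 0.07 over both treatments (adjusted p = 0.133). Cyclin E2 (CCNE2), a partner of CDK2 at S-phase entry, had one of -0.09 ± 0.07 (adjusted p = 0.442). Neither passed.

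The list can also be laid out array by array. Setting each SRC1 untreated array against the control untreated array of the same number gave medians over the 42 genes of -0.07, 0.05, -0.06 and -0.08 for numbers 1 to 4, beside -0.02, -0.01, 0.01 and 0.01 over all genes. In tamoxifen-treated cells, the medians were -0.16 for number 1 and -0.06 for number 3, beside -0.03 and -0.04 over all genes. Number 2 stood on the other side in untreated cells, and number 1 had the more negative median in tamoxifen-treated cells. The labels do not say what a number stands for, and these differences only lay out the arrays.

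HELLS, a chromatin-remodelling helicase needed for DNA methylation, had the largest falls of any probe set of the list after the knockdown, but not in its brightest probe set. The gene has 5 probe sets. The brightest, 223556_at, did not pass, with differences of -0.10 ± 0.08 in untreated cells (adjusted p = 0.484) and -0.32 ± 0.10 in tamoxifen-treated cells (0.0554). Probe set 227349_at read 6.55, 5.96, 6.31 and 6.68 in control untreated cells and 5.12, 5.34, 5.43 and 5.10 in SRC1 untreated cells. It fell by 1.12 on the log2 scale (SE 0.14, adjusted p = 6.02e-04, block 0.00739). In tamoxifen-treated cells it read 6.24, 6.60, 6.32 and 6.51 against 4.90 and 5.0, a change of -1.47 ± 0.17 (adjusted p = 6.16e-04, block 0.0153). The highest SRC1 array of this probe set (5.43) lay below the lowest control array (5.96).

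Probe set 227350_at of HELLS read 10.39, 10.37, 10.09 and 10.27 against 9.39, 9.45, 9.87 and 9.91 in untreated cells, a change of -0.63 ± 0.11 (adjusted p = 0.00433, block 0.0267). In tamoxifen-treated cells it read 10.56, 10.57, 10.44 and 10.37 against 9.84 and 9.77, a change of -0.68 ± 0.14 (adjusted p = 0.00823, block 0.0675). Probe set 220085_at read 7.29, 7.21, 7.13 and 7.14 against 6.45, 6.05, 6.51 and 6.95 in untreated cells, a change of -0.70 ± 0.15 (adjusted p = 0.0119, block 0.0400). In tamoxifen-treated cells its difference of -0.42 ± 0.19 did not pass (adjusted p = 0.159). The fifth, 234040_at, had differences of 0.23 ± 0.12 and 0.09 ± 0.15 and did not pass. HELLS probe sets thus disagreed: 3 fell in untreated cells, 2 of them also in tamoxifen-treated cells, and the brightest and the dimmest did not pass. Which transcripts each probe set reads was not analysed here. The interaction did not pass for any of the 5 (adjusted p from 0.422 to 0.901).

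**Figure D3:**
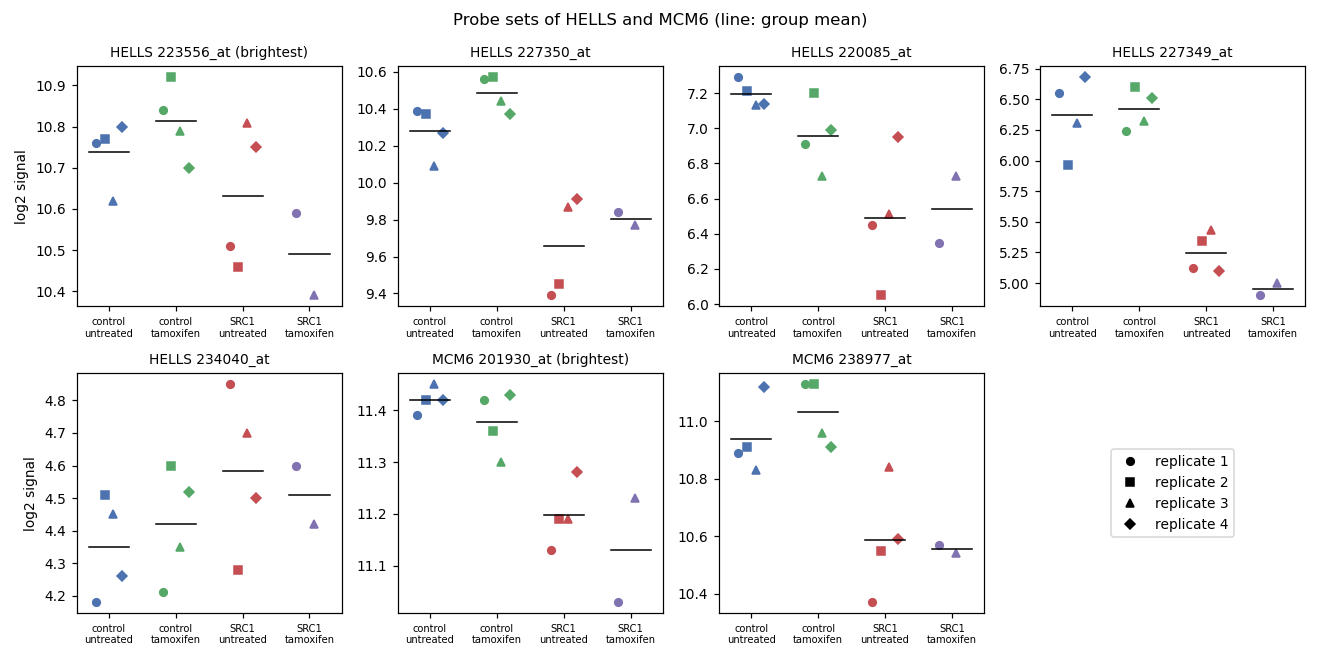
Log2 signal (vertical axis, a different range in each panel) on each of the 14 arrays by group for the 5 probe sets of HELLS and the 2 of MCM6; symbols give the replicate number and lines the group means. HELLS 227349_at falls from 5.96 to 6.68 in the control groups to 4.90 to 5.43 in the SRC1 groups, while HELLS 234040_at shows no such step.

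MCM6 was the clearest case of probe sets that moved together. Its second probe set, 238977_at, read 10.89, 10.91, 10.83 and 11.12 in control untreated cells and 10.37, 10.55, 10.84 and 10.59 in SRC1 untreated cells, a change of -0.35 ± 0.09 (adjusted p = 0.0307, block 0.106). In tamoxifen-treated cells it changed by -0.48 ± 0.11 (0.0171, block 0.108). All 3 probe sets of MCM10 were lower in tamoxifen-treated cells: 223570_at by the -0.35 above, 222962_s_at by -0.63 ± 0.13 (adjusted p = 0.0100, block 0.0757) and 220651_s_at by -0.44 ± 0.13 (0.0407, block 0.170).

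The second probe set of CDC6, 203968_s_at, did not follow the first in tamoxifen-treated cells. Its differences were -0.04 ± 0.11 there (adjusted p = 0.842), -0.24 ± 0.09 in untreated cells (0.104) and -0.16 over both treatments (0.147), and the mean of both probe sets was -0.23 in tamoxifen-treated cells (adjusted p = 0.0896). For RFC1 the second probe set, 208021_s_at, had -0.16 ± 0.07 in tamoxifen-treated cells (adjusted p = 0.122), 0.06 for tamoxifen in control-siRNA cells and -0.11 for the interaction, none past the test. The third, 208133_at, lies at 2.47, below the median of all probe sets.

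Other genes had probe sets of opposite sign. For RRM1 the second probe set, 201476_s_at, had a difference of 0.27 ± 0.15 in untreated cells (adjusted p = 0.268) while the brightest fell, and the mean of both had one of 0.01 (adjusted p = 0.950). In tamoxifen-treated cells 212141_at of MCM4 was higher by 0.33 ± 0.09 (adjusted p = 0.0285, block 0.122), although the brightest probe set of MCM4 had a difference of -0.15 ± 0.08. GINS4 is dim in all 4 of its probe sets, and 235029_at changed by -0.36 ± 0.09 with the knockdown in untreated cells (adjusted p = 0.0260, block 0.0964) and by 0.61 ± 0.11 with tamoxifen in SRC1-siRNA cells (0.0227, block 0.202). Its mean signal of 3.18 is below the median of all probe sets. The second probe set of MCM5, 201755_at, was lower in untreated cells (-0.30 ± 0.09, adjusted p = 0.0461, block 0.128), as was 203209_at of RFC5 in tamoxifen-treated cells (-0.26 ± 0.06, adjusted p = 0.0147, block 0.125). TYMS also had 1 of 3 probe sets on the other side of 0 in tamoxifen-treated cells, 217684_at with 0.21 ± 0.17 (adjusted p = 0.453). The mean of the 3 TYMS probe sets was -0.16 there (adjusted p = 0.370) and -0.18 over both treatments (0.0893), and neither passed.

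Counting all 81 probe sets of the 42 genes, 9 fell in untreated cells (11.1%, against 5.64% of the 41091 probe sets with 1 gene symbol) and 0 rose (5.71%). With the block 3 fell, all of HELLS (3.70%, against 2.11% lower and 2.31% higher). In tamoxifen-treated cells 14 fell (17.3% against 8.43%) and 1 rose (1.23% against 6.01%), and with the block 1 fell, 227349_at of HELLS (1.23% against 1.27% lower and 1.18% higher). Over both treatments 17 fell (21.0% against 10.3%), of which 8 with the block (9.88% against 5.43%): 3 of HELLS, 2 of MCM6 and 1 each of MCM10, CDC6 and RRM1. Probe sets of 1 gene share its RNA and are not replicates.

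After 2 hours of tamoxifen no replication gene passed the test by its brightest probe set in either siRNA group. In control-siRNA cells limma called 0 of 42 genes, against 0.0961% higher and 0.152% lower among all genes. At an unadjusted p under 0.05, 3 were higher (7.14%, against 8.83% of all genes) and 1 lower (2.38% against 8.18%). The median change was 0.05, and 14 changes were below 0 (33.3% against 48.4%). The 95% intervals of all 42 genes lay within 2-fold, with or without the block. Groups were apart and higher for ORC6, PCNA, RFC1 and RRM2 (9.52% against 5.55%) and apart and lower for none (0 against 4.48%).

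ORC6 came nearest to passing. It read 10.06, 10.35, 10.34 and 10.30 untreated and 10.60, 10.56, 10.64 and 10.67 with tamoxifen, a change of 0.36 ± 0.07 (27.9%, adjusted p = 0.0534, block 0.378). Under 3 other settings it passed, with adjusted p between 0.0436 and 0.0490. PCNA read 11.38, 11.34, 11.31 and 11.39 untreated and 11.49, 11.58, 11.68 and 11.57 with tamoxifen (0.23 ± 0.05, adjusted p = 0.0745). RFC1 read 9.89, 9.97, 9.97 and 9.89 untreated and 10.04, 10.18, 10.20 and 10.11 with tamoxifen (0.20 ± 0.05, adjusted p = 0.106). All 4 tamoxifen arrays lay above all 4 untreated ones in these 3 genes, and their intervals, 0.21 to 0.50, 0.12 to 0.33 and 0.09 to 0.31, did not include 0. POLE was the 1 gene lower at the unadjusted threshold (-0.31 ± 0.11, adjusted p = 0.211).

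In SRC1-siRNA cells, with 2 tamoxifen arrays, 0 of 42 genes were called (background 0.334% higher and 0.485% lower). At an unadjusted p under 0.05, 0 were higher (5.22%) and 2 lower (4.76% against 8.46%), and the median change was -0.05, with 28 changes below 0 (66.7% against 56.0%). The 2 were the dim genes GINS4 and POLD1. GINS4 read 3.99, 4.28, 3.75 and 4.34 untreated and 3.40 and 3.62 with tamoxifen (-0.58 ± 0.15, adjusted p = 0.0770). POLD1, the catalytic subunit of polymerase delta, read 4.16, 4.29, 4.24 and 4.40 untreated and 3.86 and 4.12 with tamoxifen (-0.28 ± 0.09, adjusted p = 0.127). The groups of 6 genes were apart and lower (14.3% against 12.7%), among them GINS4 and POLD1, and those of POLE apart and higher (2.38% against 8.21%). GINS4 and POLD1 lie where the scale is compressed.

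**Figure D4:**
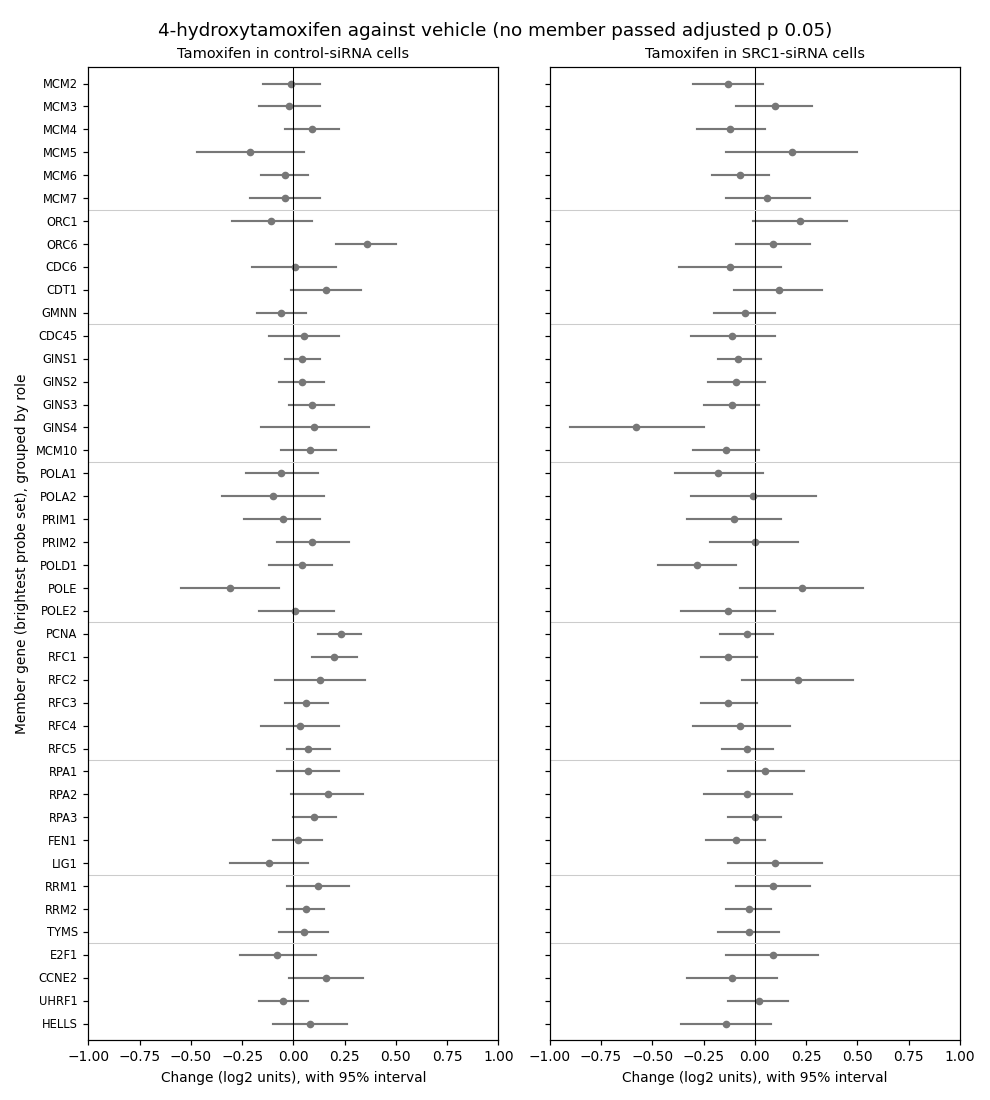
Change of each of the 42 genes after 2 hours of tamoxifen (log2 units, horizontal axis) with its 95% interval, in control-siRNA cells on the left and SRC1-siRNA cells on the right, with genes in rows grouped by role. No gene passed an adjusted p of 0.05; ORC6 (0.36) is highest on the left and GINS4 (-0.58) lowest on the right.

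Whether tamoxifen acted differently in the presence of the knockdown was tested as an interaction, and 0 of 42 genes passed (background 0.0607% higher and 0.111% lower). At an unadjusted p under 0.05, 2 were higher (4.76% against 6.38%) and 8 lower (19.0% against 9.27%). The smallest adjusted p was that of RFC1 at 0.0891, for a difference of -0.32 ± 0.08. PCNA had -0.27 ± 0.08 (adjusted p = 0.125) and GINS4 -0.68 ± 0.20 (0.121). In SRC1-siRNA cells RFC1 read 9.97, 9.88, 9.91 and 10.02 untreated and 9.82 on both tamoxifen arrays, and PCNA 11.44, 11.47, 11.50 and 11.57 untreated and 11.46 and 11.44 with tamoxifen. PCNA levels thus overlapped there. For RFC1 both tamoxifen arrays lay below the untreated ones, with a difference of -0.13 ± 0.06 that did not pass (adjusted p = 0.330). The median interaction was -0.11, with 31 values below 0 (73.8% against 55.2%). A difference between the treatments in the count of lowered genes, 3 against 8, is therefore not shown by this test. The interaction shares its arrays with the comparisons above.

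By role, the 6 helicase activation genes, the 3 nucleotide supply genes and the 4 genes of S-phase entry and chromatin all had fitted differences below 0 in tamoxifen-treated cells after the knockdown, with medians of -0.20, -0.23 and -0.19. The 7 polymerase and primase genes had a median of -0.24, with 5 of 7 below 0 and none called. That median is the value of POLD1, a dim gene. The 6 clamp genes had a median of -0.18, with 5 of 6 below 0. The 5 genes of single-strand binding and Okazaki fragments had one of -0.12, with 3 of 5 below 0. The 6 helicase ring subunits (-0.03) and the 5 licensing genes (-0.01) stood beside -0.03 over all genes. In untreated cells the medians of the roles lay between -0.15 and 0.01. Each role holds few genes and no test was made on these medians.

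Other genes of the pathway were called in both directions. Of 33 further replication genes, 3 were higher and 1 lower after the knockdown in untreated cells, and 1 was higher and 6 lower in tamoxifen-treated cells, with medians of -0.02 and -0.07. Among all genes 5.97% were higher and 5.98% lower in untreated cells, and 6.49% and 8.71% in tamoxifen-treated cells. With the block 0 of these 33 genes were higher and 1 lower in untreated cells, and 0 were called in tamoxifen-treated cells. The shares of all genes with the block were 2.53% higher and 2.23% lower, and 1.39% and 1.31%. POLE4, a small subunit of polymerase epsilon, was lower in both, by -0.37 ± 0.06 (adjusted p = 0.00147, block 0.0144) and -0.24 ± 0.07 (0.0358, block 0.189). The 3 higher in untreated cells were MTBP (0.35 ± 0.08, adjusted p = 0.0184, block 0.0703), which acts in origin firing, MCM9 (0.29 ± 0.07, 0.0185, block 0.0814) and RNASEH2B (0.31 ± 0.09, 0.0357, block 0.125). In tamoxifen-treated cells CHAF1A was higher (0.35 ± 0.07, adjusted p = 0.00561, block 0.0550) and had the smallest p of these genes. TOP2A, topoisomerase II alpha (-0.34 ± 0.07, 0.00705, block 0.0757), and DBF4, the activator of the kinase CDC7 (-0.31 ± 0.07, 0.0161, block 0.120), were lower in tamoxifen-treated cells. Of 8 measured genes of nucleotide synthesis beyond the list, 1 was lower in each setting: CAD, which starts pyrimidine synthesis, in untreated cells (-0.30 ± 0.09, adjusted p = 0.0443, block 0.143) and the dUTPase DUT in tamoxifen-treated cells (-0.21 ± 0.06, 0.0350, block 0.199).

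Among 31 measured regulators of the step from G1 to S, the D-type cyclins CCND2 and CCND3 rose with the knockdown, and CCND1 did not pass (0.04 ± 0.04 in untreated and 0.14 ± 0.05 in tamoxifen-treated cells, adjusted p = 0.631 and 0.105). CCND2, cyclin D2, averaged 3.42 in control untreated and 3.09 in control tamoxifen cells, near the floor of the scale, and 6.18 and 6.36 in the SRC1 groups. The fitted differences of 2.77 ± 0.32 (adjusted p = 5.35e-04, block 0.00680) and 3.27 ± 0.40 (8.28e-04, block 0.0167) set a measured level against a compressed one, and so may understate the change. CCND3, cyclin D3, was higher by 0.70 ± 0.13 (0.00591, block 0.0321) and 0.80 ± 0.16 (0.00855, block 0.0666). CDKN1A, the CDK inhibitor p21, was higher by 0.24 ± 0.06 (0.0185, block 0.0382) and 0.33 ± 0.07 (0.0108, block 0.0548). CDK2 was lower in tamoxifen-treated cells by -0.30 ± 0.07 (0.0135, block 0.115). E2F7 was higher in untreated cells (0.29 ± 0.06, 0.0119, block 0.0618). MYBL2 was lower in both settings, by -0.28 ± 0.08 (0.0296, block 0.105) and -0.32 ± 0.09 (0.0376, block 0.170). In all, 4 regulators were higher and 2 lower in untreated cells (with the block 3 and 0), and 4 higher and 3 lower in tamoxifen-treated cells (with the block 1 and 0). Among all genes 5.97% were higher and 5.98% lower in untreated cells, and 6.49% and 8.71% in tamoxifen-treated cells. With the block these shares of all genes were 2.53% and 2.23%, and 1.39% and 1.31%. MYC was lower by -0.81 ± 0.13 after tamoxifen in control-siRNA cells (adjusted p = 0.0343, block 0.339), the only regulator called for tamoxifen. It was also lower with the knockdown in untreated cells, by -0.45 ± 0.13 (adjusted p = 0.0371, block 0.118).

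Genes of mitosis were called lower and not higher. Of 22 mitosis genes 4 were lower and 0 higher in untreated cells (median -0.16), and 10 lower and 0 higher in tamoxifen-treated cells (median -0.31). With the block 0 and 1 were lower. Over both treatments 15 were lower, and 7 with the block. Among all genes 5.98%, 8.71% and 11.1% were lower in these comparisons, and 2.23%, 1.31% and 5.94% with the block. Genes of the interferon response moved with the knockdown in the other direction: 14 of 25 measured were higher and 0 lower in untreated cells, with a median of 1.36, and 6 were higher and 0 lower in tamoxifen-treated cells, with a median of 0.85. With the block 7 and 2 were higher. Among all genes 5.97% and 6.49% were higher in these comparisons, and 2.53% and 1.39% with the block. The mean signal of the interferon response genes was 9.23 to 10.89 on control arrays and 11.28 to 12.97 on SRC1 arrays. It was highest on SRC1 untreated replicate 4 (12.97), while replicate 4 was lowest in both control groups (9.23 and 9.43). The part of that response in the replication results was not tested. Signals of 3′ against 5′ control probe sets for GAPDH (0.64 to 0.97) and ACTB (2.67 to 3.45) overlapped across all 4 groups.

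**Figure D5:**
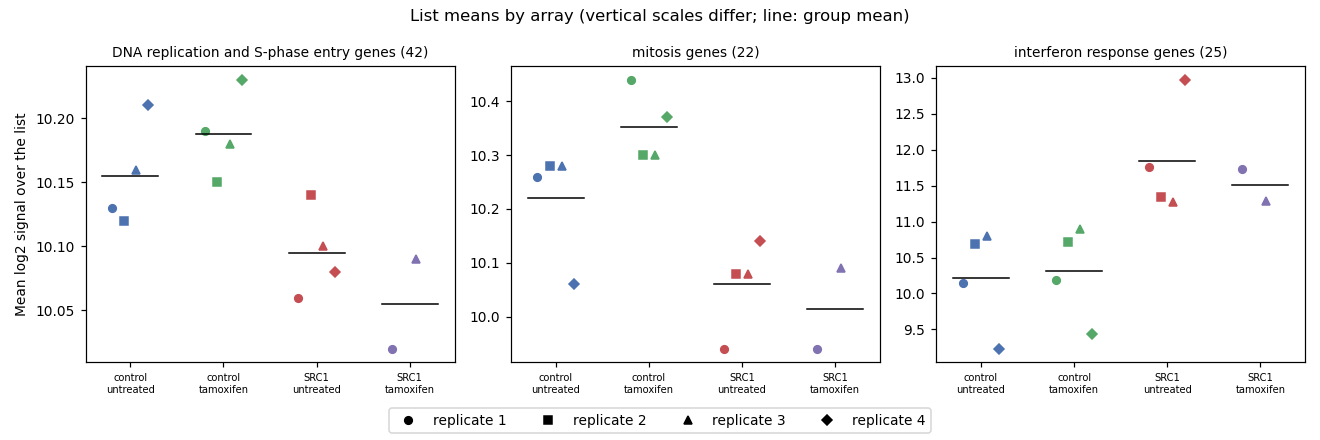
Mean log2 signal over each list (vertical axis, a different range in each panel) on each of the 14 arrays, by group, for the 42 replication genes, 22 mitosis genes and 25 interferon response genes; symbols give the replicate number and lines the group means. The replication mean spans 10.02 to 10.23 over all arrays, and the interferon mean is 9.23 to 10.89 on control arrays and at least 11.28 on SRC1 arrays.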

How the data were processed

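Total RNA of LY2 cells was amplified and measured on 14 one-colour HG-U133 Plus 2.0 arrays. The authors deposited 1 log2 value for each probe set on each array. R 2.9.2 was used, per the submitters' processing notes. How background was corrected, how arrays were normalized and how probes were summarised is not given in the sources used here. Base 2 was read from the range the values span. Values were used as deposited, and arrays had nearly equal medians (3.44 to 3.51). The number of arrays limits the precision.

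Of 54675 probe sets, 62 array controls were left out and 54613 analysed. In the platform annotation 41091 named 1 gene, 1801 several and 11721 none, and symbols were updated through RefSeq. Groups came from the labels. limma 3.58.1 (statmod 1.5.0, R 4.3.3) fitted 4 group means over all 14 arrays with lmFit and eBayes, and the knockdown over both treatments came from a model with siRNA and treatment as additive terms. Tests were two-sided, with Benjamini-Hochberg adjustment over all 54613 probe sets and a threshold of 0.05. Background shares are over the brightest probe sets of 19775 genes. Intervals are at 95%.

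The members and all lists were chosen with earlier results of these data known, so no list was tested as a set. Arrays are given for genes past the threshold, for most of up to 3 more with the smallest p in each comparison, and for some further probe sets. The code was tested on simulated data. Alternatives were leaving out each array, each replicate number or dim probe sets, weighting arrays, normalizing by quantiles, centring on medians, using the replicate number as a block, fitting only the arrays compared, averaging a gene's probe sets, and a trended and robust eBayes. Some listed genes outside the 42 were not analysed here.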

Additional observations from a re-analysis of the deposited data

Results flagged for a closer look

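In 126 groups of 4 arrays of the replication genes, 5 held 1 array apart from the others, by a gap of 0.831 to 0.975 of the group's range. Chance gives about 1 in 20 groups, so this count was not above chance. The gap is judged against the spread of the group and can be small in log2 units. MCM2 in control tamoxifen cells read 10.57 on replicate 1 and 10.39 to 10.41 on the others. GINS2 in the same group read 11.29 on replicate 2 against 11.37 to 11.38, and RFC3 read 12.42 on that array against 12.48 to 12.49. E2F1 in control tamoxifen cells read 7.87 on replicate 3 against 8.15 to 8.16, and in SRC1 untreated cells 7.83 on replicate 1 against 7.97 to 7.99. Of these genes GINS2 passed a test in tamoxifen-treated cells. Its low array lies in the control group, on the side of the SRC1 arrays.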

How the results depend on the processing

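The median changes of the 42 genes kept their direction under all alternatives, except that for tamoxifen in SRC1-siRNA cells, which was 0.01 without SRC1 tamoxifen replicate 1. Leaving out arrays or numbers gave medians of -0.07 to -0.03 (knockdown, untreated), -0.20 to -0.10 (knockdown, tamoxifen), -0.10 to -0.04 (knockdown over both), 0.04 to 0.06 and -0.09 to 0.01 (tamoxifen in control- and SRC1-siRNA cells) and -0.13 to -0.04 (interaction). Counts of called genes ranged then from 0 to 4, 0 to 9, 1 to 13, 0 to 0, 0 to 1 and 0 to 0 in that order, where a group left with 1 array was assumed to vary like the others. For the knockdown in untreated cells the 3 calls became 1 without control untreated replicate 1 or 4 or SRC1 untreated replicate 4, and 0 without SRC1 untreated replicate 1. In tamoxifen-treated cells the 8 became 5 without control tamoxifen replicate 1 or 4 or SRC1 tamoxifen replicate 3, 3 without control tamoxifen replicate 3, and 0 without SRC1 tamoxifen replicate 1. Without all arrays of number 1, 2, 3 or 4 it was 0, 2, 4 and 4, and in untreated cells 0 without number 1 or 2 and 1 without number 4. In tamoxifen-treated cells the count was 4 with quantile normalization, 13 with median centring, 3 with only the arrays compared, 13 with eBayes trend and robust, and 5 with array weights, and the cause was not tested. With the replicate block it was 0, as in untreated cells, and 3 in place of 11 over both treatments; the block has fewer residual degrees of freedom (7 against 10), and the numbers were not taken as pairs, since arrays that share one deviate apart. Apart from the block, the share of all genes called under these alternatives is not given here. Counts of members under them thus do not set the list apart from all genes. For tamoxifen in control-siRNA cells 1 gene, ORC6, rose with eBayes trend and robust, with array weights and with all probe sets of a gene averaged. With that average RRM1 changed sign in untreated cells, to 0.01, and HELLS fell by 0.50 over both treatments (adjusted p = 4.11e-05). Results of single genes and probe sets kept their direction and side of the threshold under 1472 settings, lost a call under 248 and gained 1 under 34, while 5 values that had not passed changed sign. HELLS 227349_at stayed past the threshold under all settings in both knockdown comparisons. Dim signals limit GINS4, POLD1 and ORC1.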
